A study of Arabidopsis thaliana with 12 samples.

Results

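The response of gpl-1 seedlings to abscisic acid (ABA) was examined in 6 of the 12 libraries of the series, namely 3 libraries of gpl-1 and 3 of gpl-1 treated with ABA, chosen by their labels alone. The gpl-1 line is an Arabidopsis thaliana Col-0 plant in which CRISPR-Cas9 with a pair of guides deleted part of GPL, the gene for the GPS2-like protein, and it is 1 of the independent lines made in that way. All 4 groups of the series shared the Col-0 background, MS medium with sucrose and an age of 2 weeks, and the ABA groups were kept with ABA for 2 h. The ABA concentration is not given in the sources used here, nor is a mock treatment of the untreated groups described. The sample records give 8 buds for a treatment, whereas the methods describe whole seedlings pooled into a single sample per genotype and treatment. The libraries may therefore be repeats of one pool, and any p-value would then measure technical spread. The wild type (WT, Col-0) without and with ABA, with 3 libraries each, served as the comparison.

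ABA is the hormone that closes stomata and switches on protective gene expression when water is short. Its receptors block clade A protein phosphatases, which frees SnRK2 kinases to activate transcription factors of the ABF family. GPL was described as a partner of HOS15 and of the histone deacetylases HDA6 and HDA9 in a repressor complex, so the comparison asks how the transcriptome without GPL responds to the hormone. The deposited counts answer this for classes of transcripts and not for single genes. Each file lists 9 gene biotypes, the classes by which an annotation sorts its genes, with 1 count of sequenced fragments for all exons of a class. Values per gene were not analysed here, and GPL itself could not serve as a check of the labels. The count columns of the gpl-1 files carry the name UP in place of gpl-1, and the files were assigned by their sample records.

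The classes differ in what a poly(A)-selected library can hold of them. Protein-coding genes yield mRNA. The miRNA class counts pieces of primary transcripts, since the mature miRNAs cut from them by DCL1 are short and carry no poly(A) tail. The snoRNAs guide the chemical modification of rRNA, snRNAs form the spliceosome, and tRNAs and rRNAs serve in translation, and most of these RNAs lack a long poly(A) tail. Transposable elements are mostly kept silent by DNA and histone methylation.

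The miRNA class held 191 distinct exons on the 5 nuclear chromosomes, with a median length of 126 bases. Of these, 115 had the same ends as a gene of the RefSeq annotation of TAIR10.1, 63 overlapped a miRNA gene of it and 13 matched none. Mature miRNAs of loci in this class with known roles are shown to make clear what the class contains. They were not picked for any measured value, since no locus has a value of its own. The sequences are RefSeq's for TAIR10.1, and capitals mark bases 2 to 8, the seed.
ath-miR159a: uUUGGAUUgaagggagcucua
ath-miR159b-3p: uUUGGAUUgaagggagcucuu
ath-miR168a-5p: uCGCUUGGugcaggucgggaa
ath-miR169a-5p: cAGCCAAGgaugacuugccga
ath-miR394a: uUGGCAUUcuguccaccucc
The miR159 pair shares its seed and targets MYB transcription factors of the GAMYB type, which act in ABA and gibberellin responses. It comes from MIR159a (AT1G73687, minus strand, mature sequence at chr1:27713234-27713254) and MIR159b (AT1G18075, plus strand, chr1:6220813-6220833). MIR168a (AT4G19395, plus strand, chr4:10578652-10578672) gives the miRNA that targets AGO1, the main slicer of the miRNA pathway. The miRNA of MIR169a (AT3G13405, minus strand, chr3:4359182-4359202) targets NF-YA transcription factors, one of which acts in drought tolerance, and that of MIR394a (AT1G20375, plus strand, chr1:7058207-7058226) targets the F-box gene LCR.

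The library totals lay between 32544126 and 34329165 fragments in replicates 1 and 2 of gpl-1 and gpl-1 with ABA, and were 26291240 and 26660322 in replicate 3. In these 6 libraries 99.2% to 99.4% of the fragments came from protein-coding genes. Replicates 1 and 2 were nearly alike. A chi-square test over the 9 classes found no difference beyond sampling noise between them in gpl-1 (p = 0.14) and a small one in gpl-1 with ABA (p = 0.018). Their chi-square per degree of freedom was 1.55 and 2.31, against at least 1777 between either of them and replicate 3. Replicates 1 and 2 were therefore counted as 1 sample, also in gpl-1 with ABA, which leaves n = 2 per group, and a two-sided exact permutation test cannot give a p below 0.33. Counted as 3 libraries, it cannot give a p below 0.10. Of the 9 classes, 0 (0%) passed an adjusted p of 0.05 under either count, and 0 had an unadjusted p under 0.05. The sizes below are thus descriptions with their spread, and the share of a class is given as CPM, the count per 1000000 fragments of the library total. Where a class without a poly(A) tail shifts, a change of its RNA and a change of what the selection carried over cannot be told apart.

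The miRNA class was higher with ABA, and the snoRNA class lower, in every gpl-1 library. The miRNA share was 90.9, 92.0 and 75.6 CPM in replicates 1, 2 and 3 of gpl-1 and 128, 130 and 113 CPM in those of gpl-1 with ABA. All 3 libraries with ABA lay above all 3 without, and the lowest one of either group was replicate 3. The class mean was 83.5 ± 11.2 CPM without and 121 ± 11.3 CPM with ABA (SD, n = 2), a ratio of 1.44 and a log2 ratio of 0.53 (exact permutation p = 0.33, adjusted p = 1). Within replicates 1 and 2 the log2 ratio was 0.49, with a 95% interval from 0.44 to 0.54, and within replicate 3 it was 0.58, from 0.49 to 0.66. These intervals are exact binomial ones and cover counting error only, on 1987 to 4233 fragments per library. It is the only class of the 9 whose groups did not overlap with ABA on the higher side (11.1%).

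The snoRNA share was 64.8, 63.6 and 68.3 CPM in replicates 1, 2 and 3 of gpl-1. With ABA it was 37.0, 34.4 and 58.5 CPM. Every library with ABA lay below every library without, but replicate 3 stood closer to the untreated ones. The mean was 66.2 ± 2.87 CPM without and 47.1 ± 16.1 CPM with ABA (SD, n = 2), a log2 ratio of -0.49 (exact permutation p = 0.33, adjusted p = 1), and the SD with ABA was about as large as the difference. The log2 ratio was -0.85 within replicates 1 and 2 (interval from -0.92 to -0.77) and -0.22 within replicate 3 (from -0.32 to -0.12). Without replicate 3 of gpl-1 with ABA it was -0.89. The class is small, with 71 distinct exons of a median length of 84 bases. It is the only class of the 9 with ABA on the lower side of groups that did not overlap (11.1%).

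**Figure D1:**
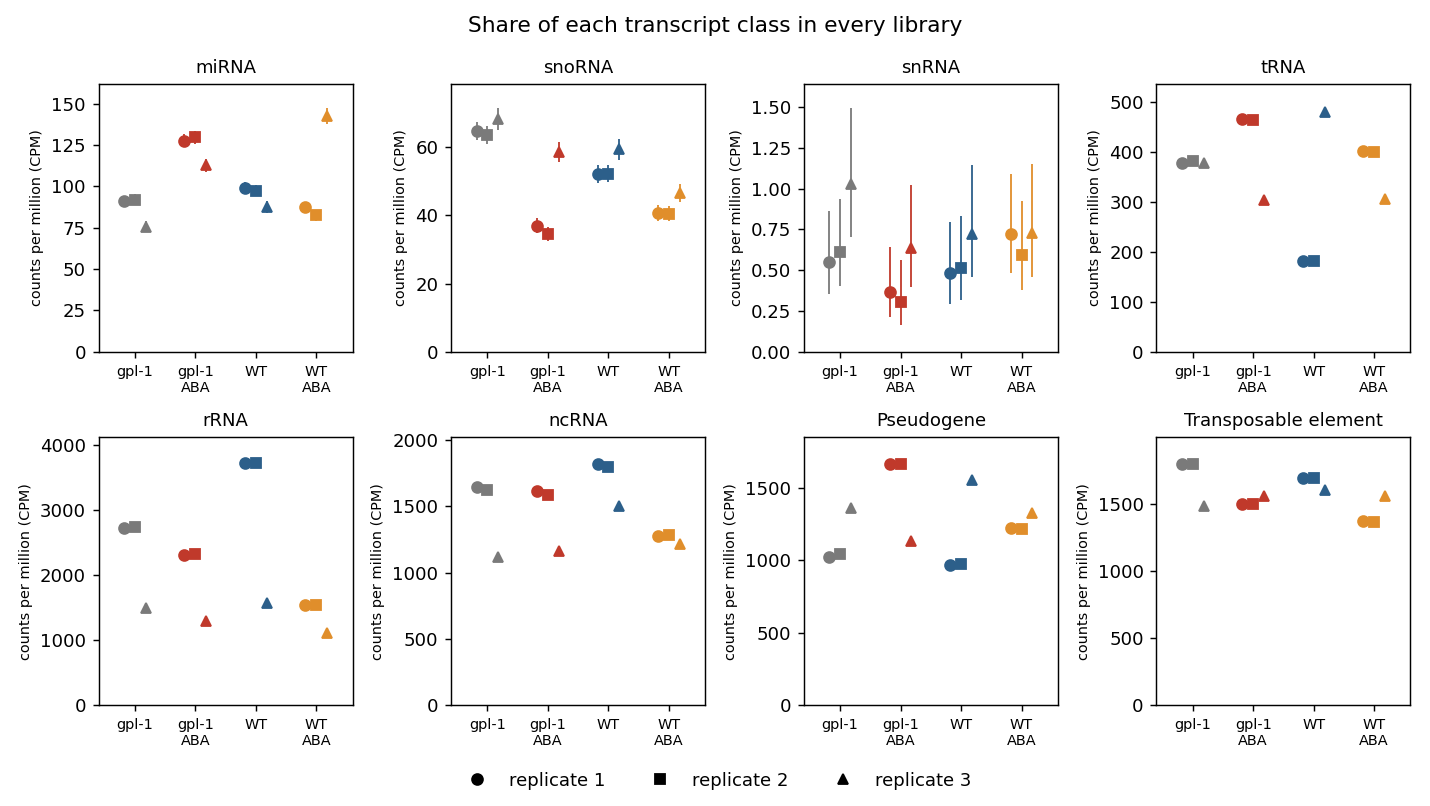
Share of 8 transcript classes in each library, in CPM (vertical axes, from 0), for the 4 groups, with the replicate number given by the symbol and bars for the 95% Wilson interval, which covers counting error only. In the miRNA panel the gpl-1 libraries with ABA (113 to 130 CPM) lie above those without (75.6 to 92.0 CPM), and for snoRNA they lie lower (34.4 to 58.5 against 63.6 to 68.3 CPM).

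The snRNA class stood lower with ABA in both sets of gpl-1 libraries, but on very few fragments. It counted 19, 21 and 27 fragments in gpl-1 and 12, 10 and 17 in gpl-1 with ABA. As shares these were 0.553, 0.613 and 1.03 CPM without and 0.369, 0.306 and 0.638 CPM with ABA, so the groups overlapped. The log2 ratio was -0.79 within replicates 1 and 2 (interval from -1.61 to -0.0049) and -0.69 within replicate 3 (from -1.65 to 0.24). The second interval includes 0, so a difference was not detectable there at this depth.

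The rRNA class differed more between replicate numbers than with ABA. Its exons are nuclear rRNA genes of the small subunit and the short large-subunit rRNA, on chromosomes 2 and 3, and the rRNA genes of the mitochondrion and the chloroplast. The organelle genes make up 11 of its 15 exons, and the chloroplast ones lie in an inverted repeat, so their copies share reads. In gpl-1 the share was 2718, 2731 and 1493 CPM in replicates 1, 2 and 3, and with ABA it was 2304, 2326 and 1303 CPM. ABA libraries stood lower within each replicate number, by log2 ratios of -0.24 in replicates 1 and 2 and -0.20 in replicate 3, but the groups overlapped. Replicate 3 of gpl-1 stood lower than replicates 1 and 2 by a log2 ratio of -0.87, and that of gpl-1 with ABA by -0.83. Without replicate 3 of gpl-1 with ABA, the difference of the group means turned to a log2 ratio of 0.13.

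Pseudogenes, tRNA and transposable elements moved in opposite directions in the separate sets of gpl-1 libraries. The pseudogene share was 1025, 1041 and 1360 CPM in replicates 1, 2 and 3 of gpl-1 and 1662, 1666 and 1130 CPM with ABA. It was thus higher with ABA in replicates 1 and 2, by a log2 ratio of 0.69, and lower in replicate 3, by -0.27. The tRNA share was 379, 383 and 378 CPM in gpl-1, where the 3 libraries lay close together. With ABA it was 466, 463 and 304 CPM, so that the treated libraries fell on either side of the untreated ones. The log2 ratio of tRNA was 0.29 in replicates 1 and 2 and -0.31 in replicate 3. Transposable elements had 1793, 1800 and 1487 CPM in gpl-1 and 1503, 1499 and 1559 CPM with ABA. Their groups overlapped, at 1642 ± 219 CPM without and 1530 ± 41.4 CPM with ABA (SD, n = 2). Their log2 ratio was -0.26 in replicates 1 and 2 and 0.068 in replicate 3. For each of these 3 classes the counting intervals of both sets exclude 0, on opposite sides. Whether a difference of plants, of library preparation or of labels lies behind it was not tested.

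The ncRNA class, which collects other annotated non-coding transcripts, had nearly level group means. It had 1647, 1625 and 1118 CPM in gpl-1 and 1618, 1585 and 1166 CPM with ABA, with a log2 ratio of the means of 0.0070. Its sets moved in opposite directions too, though by little. The log2 ratio was -0.031 in replicates 1 and 2 (interval from -0.043 to -0.018) and 0.060 in replicate 3 (from 0.037 to 0.083). Replicate 3 was the lowest library of each group. Exons of other classes cover 49.7% of its bases, and fragments that touch exons of more than 1 class were not counted under the default of featureCounts, which leaves part of this class out of the count. Such overlap covers 13.2% of the miRNA bases, 9.63% of the snoRNA bases and 0% of the rRNA bases.

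Of the 9 classes, 5 had the same direction in replicates 1 and 2 and in replicate 3 of gpl-1. They were miRNA and protein-coding genes, higher with ABA, and snoRNA, snRNA and rRNA, lower with ABA. The other 4 had opposite directions. For protein-coding genes the counting intervals spanned no change in both sets (from -0.00047 to 0.00051 and from -0.00027 to 0.0013), as did that of snRNA in replicate 3. The protein-coding share hardly differed, at 99.3% in either group, with a log2 ratio of 0.00026.

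**Figure D2:**
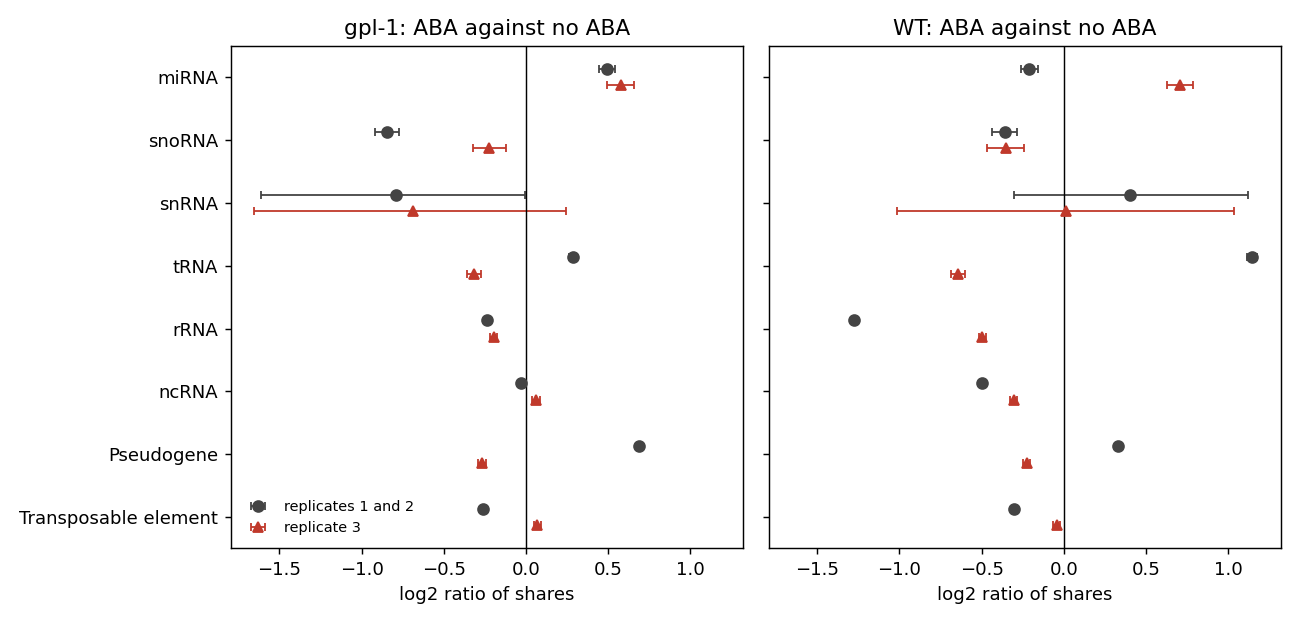
Log2 ratio of the share with ABA to the share without (horizontal axes), for 8 transcript classes in gpl-1 (left) and WT (right). Circles stand for replicates 1 and 2 summed, triangles for replicate 3, and bars for the 95% exact binomial interval of counting error; in gpl-1 both symbols lie on the same side of 0 for miRNA, snoRNA, snRNA and rRNA, and in WT for snoRNA, snRNA, rRNA, ncRNA and transposable elements.

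In WT seedlings the miRNA class had no single direction with ABA. Their miRNA share was 99.0, 97.3 and 87.3 CPM without ABA and 87.4, 82.4 and 143 CPM with ABA. The log2 ratio was -0.21 in replicates 1 and 2 and 0.71 in replicate 3. The response of gpl-1 minus that of WT was 0.70 in the former and -0.13 in the latter, so the direction of the difference between genotypes depended on the replicate number. The mean of the miRNA class in WT was 92.7 ± 7.65 CPM without and 114 ± 40.7 CPM with ABA (SD, n = 2), and the difference of the responses from the group means was 0.24 with an SD of 0.59.

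The snoRNA class stood lower with ABA in WT too. It had 52.1, 52.2 and 59.4 CPM in replicates 1, 2 and 3 of WT and 40.6, 40.6 and 46.5 CPM with ABA, and the groups did not overlap. The log2 ratio of the means, -0.36 in WT against -0.49 in gpl-1, differed by -0.14 with an SD of 0.44. By set, the response of gpl-1 minus that of WT was -0.49 in replicates 1 and 2 and 0.13 in replicate 3, so its direction depended on the replicate number. In WT, 4 of the 9 classes (44.4%) had groups that did not overlap with ABA lower, and 1 (11.1%), the protein-coding genes, with ABA higher. The protein-coding log2 ratio of the means was only 0.0027. Shares of a library add up to its total, so this rise and the falls of other classes are not separate results.

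The ABA response of the ncRNA class differed between the genotypes in the same direction in both sets of libraries. This was the case for 5 of the 9 classes, which is close to an even split. In WT its log2 ratio with ABA was -0.50 for replicates 1 and 2 summed and -0.31 for replicate 3, whereas in gpl-1 it was -0.031 and 0.060. The difference was 0.47 in the former and 0.37 in the latter, with an SD of 0.071 over the 2 sets. The levels behind it were not alike. With ABA, the ncRNA share of gpl-1 lay above that of WT in replicates 1 and 2 (1602 against 1281 CPM). In replicate 3 it lay below (1166 against 1216 CPM). Without ABA, gpl-1 lay below WT in both sets (1636 against 1808 CPM and 1118 against 1504 CPM). In untreated WT the rRNA share was 3717, 3711 and 1573 CPM in replicates 1, 2 and 3. It stood lower with ABA by log2 ratios of -1.27 and -0.50 in the 2 sets. The rRNA difference between the genotypes was 1.04 and 0.30, with an SD of 0.52. These differences were not tested, and no model with an interaction term was fitted.

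Per length of exon the classes ranged over several orders of magnitude. In the 6 gpl-1 libraries rRNA had a median of 131 fragments per kb of exon per 1000000, protein-coding genes 24.1, snoRNA 8.32, tRNA 7.88, ncRNA 3.73, miRNA 2.84, pseudogenes 1.42, transposable elements 0.169 and snRNA 0.0687. The values of neighbours in this order overlapped for snoRNA and tRNA, which ranged from 4.69 to 9.30 and from 6.29 to 9.65. They also overlapped for ncRNA, which reached 3.84, and miRNA, which ranged from 2.10 to 3.59. Transposable elements are the largest of the small classes in length, with 9051642 bases of exon, and had 0.164 to 0.199 fragments per kb per 1000000 in every gpl-1 library.

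**Figure D3:**
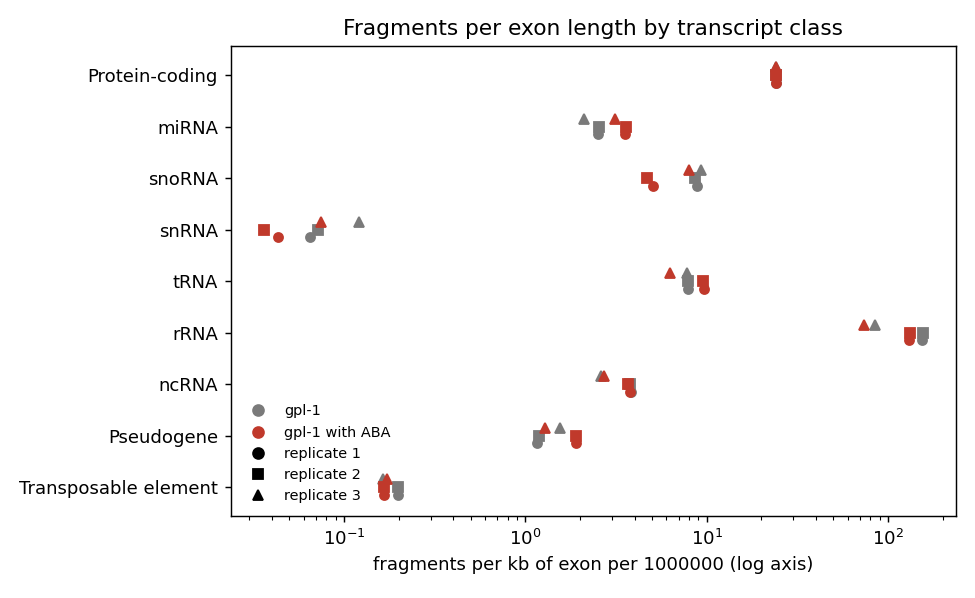
Fragments per kb of exon per 1000000 (log axis) for the 9 transcript classes in the gpl-1 libraries without (grey) and with ABA (red), with the replicate number given by the symbol. The rRNA class lies highest, the protein-coding genes at 24.1 to 24.2, and transposable elements and snRNA lie below 1.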

How the data were processed

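The authors used Bowtie2 to place the read pairs on TAIR10 and featureCounts 2.0.1 to count fragments. The deposited values are raw counts per gene biotype. Per the file headers, fragments were counted over exons, grouped by biotype, without strand although the kit is directional, with both mates mapped, no chimeric pairs, and marked duplicates kept. Reads from a gene and its antisense partner cannot be told apart in such counts. Trim Galore and FastQC are named in the submitters' processing notes.

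Counts were divided by the total of the 9 classes and scaled to 1000000 (CPM). The design foresaw edgeR only for counts per gene, which these are not. Shares were compared by a two-sided exact permutation test over samples, with Benjamini-Hochberg adjustment over the 9 classes. Intervals are 95% Wilson or exact binomial ones and cover counting error only, since PCR duplicates are not independent molecules. All 9 classes are named; single genes have no value. The miRNAs printed were chosen by their known roles. Coordinates are those of TAIR10.1, in which 80.1% of the nuclear protein-coding exons of the files have identical ends.

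Members, classes and tests were chosen with earlier results of these data known. Same-numbered libraries of gpl-1 and gpl-1 with ABA deviated together over 8 classes (correlations of 0.58, 0.65 and 0.64), but replicate 1 correlated with replicate 2 as well (0.68), so the numbers set apart only replicate 3. With replicates 1 and 2 nearly alike, these correlations largely repeat a single contrast and are not separate agreements. Alternatives were 3 separate libraries, other totals, a replicate block and each library left out. Chi-square and interval code was tested on simulated data. Python 3.11.15, numpy 2.4.6, scipy 1.17.1 and matplotlib 3.10.9 were used.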

Additional observations from a re-analysis of the deposited data

Results flagged for a closer look

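The snRNA share was lower with ABA in every same-numbered pair of gpl-1 libraries and higher in every WT pair, which are 2 pairs per genotype when replicates 1 and 2 count as 1 sample, and the response of gpl-1 minus that of WT was -0.91 on the log2 scale (-1.19 in replicates 1 and 2 and -0.70 in replicate 3). The difference was not tested, and the 95% counting interval of the ratio included 0 in each of the 3 single-library pairs of either genotype. It rests on 10 to 27 fragments per library, and 1 of the WT ratios was 0.011.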

How the results depend on the processing

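All alternatives were set with earlier results known, and the replicate block for the differences between genotypes was added after seeing the data. The miRNA, snoRNA, snRNA, pseudogene and transposable element shares kept the direction of their group means under all 10 alternatives each. No alternative used replicate 3 alone, where pseudogenes and transposable elements went the other way. No call changed, since the exact permutation test cannot reach the threshold at these sample numbers. When single libraries were left out the log2 ratio ranged from 0.40 to 0.62 for miRNA, from -0.89 to -0.45 for snoRNA, from -1.26 to -0.26 for snRNA, from 0.014 to 0.29 for tRNA, from 0.22 to 0.48 for pseudogenes, from -0.23 to -0.10 for transposable elements, from -0.59 to 0.13 for rRNA, from -0.24 to 0.22 for ncRNA and from -0.0012 to 0.0015 for protein-coding genes, and the number of classes whose groups do not overlap from 2 to 7. In each of the 9 classes the value farthest from that with all libraries came without replicate 3 of gpl-1 or of gpl-1 with ABA. Both this and the kept directions were largely set in advance. Replicate 3 is a whole sample of its group, and replicates 1 and 2 share the other. Both high counts, 7 without replicate 3 of gpl-1 and 5 without that of gpl-1 with ABA, leave 1 group with a single sample. With 3 separate libraries the ncRNA log2 ratio turned to -0.0069. With totals without rRNA the protein-coding one turned to -0.00017. With totals without protein-coding genes, 1 class in place of 2 had groups that do not overlap. With a replicate block the tRNA log2 ratio turned from 0.019 to -0.014, that of miRNA was 0.53 and that of snoRNA -0.53, and it changed no other direction and no call. With 3 separate libraries or the block, the differences of the ABA response between gpl-1 and WT moved by less than their SD in all 9 classes. That SD comes from the 2 sets alone, and the block value is the mean of the same sets, so this comparison cannot show that the differences are robust. The tRNA difference was -0.081, -0.28 with 3 separate libraries and -0.26 with the block, at an SD of 0.84.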
